A study of Mus musculus with 12 samples.

Results

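Aldo-keto reductases (AKRs) are soluble enzymes that use NADPH to reduce aldehydes and ketones, among them sugars, steroids, prostaglandins and the reactive products of lipid peroxidation. In mouse liver an AKR also stands in the route from glucuronate to vitamin C: Akr1a1 reduces glucuronate to gulonate, and L-gulonolactone oxidase, encoded by Gulo, carries out the last step. Humans have lost a working copy of that last gene. The 9 genes of the AKR1 family followed here (Akr1a1, Akr1b3, Akr1b7, Akr1b8, Akr1b10, Akr1c12, Akr1c13, Akr1c14 and Akr1c19) and Gulo were taken by gene name. They are 10 of 24326 genes with deposited counts, and all 10 were among the 15965 that passed the filter on low counts. The set was selected on earlier results from these libraries, the log2 differences of Akr1c14 and Gulo from the control, so the differences of these 2 genes from the control are given as a description, with no test. Their other comparisons share libraries with those differences and are not independent of the choice.

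The cells were Hepa 1-6, a mouse hepatoma line labelled wild type and hepatocyte. The 4 groups of 3 libraries received a scrambled siRNA pool (siC), a pool against Esrra, which encodes the orphan nuclear receptor ERRα (siERRa), a pool against Hcfc1, which encodes a chromatin-associated coregulator (siHCFC1), or both pools (siERRa+siHCFC1, the combined knockdown). Each transfection used 100 nM siRNA, a repeat followed after 48 h (200 nM in total), and total RNA was taken at 96 h. The labels do not state how the dose was split in the combined knockdown or whether replicate libraries are separate cultures, so p-values here measure spread that could be technical.

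Libraries held 21.4 to 33.2 M counts. Levels are CPM (counts scaled to library size, with edgeR's TMM factors), or TPM (scaled to gene length as well) where genes are compared with each other. Esrra averaged 47.0 ± 4.72 CPM in siC, 12.02 ± 4.34 in siERRa and 17.3 ± 4.21 with both pools (SD, n = 3 each), and fell in both groups against siC (log2 difference -1.97 and -1.44, adjusted p = 0.00702 and 0.00478). Leaving out every library numbered 3 ended both calls (-1.78, adjusted p = 0.170, and -1.16, adjusted p = 0.1003). Hcfc1 averaged 173 ± 28.2 CPM in siC, 96.2 ± 29.9 in siHCFC1 and 113 ± 22.0 with both pools (SD, n = 3 each). Its log2 differences from siC, -0.85 and -0.61, missed the threshold (adjusted p = 0.0668 and 0.182). In siHCFC1 and with both pools its range lay below that of siC and overlapped that of siERRa. In library 2 it was at 126 CPM in siHCFC1 and 131 with both pools, against 142 in siC library 2. A gene is said to have risen, fallen or been called when its adjusted p in edgeR's quasi-likelihood test, corrected by Benjamini-Hochberg over all 15965 genes, was below 0.05. Hepatocyte-type markers were checked by TPM: Alb averaged 4636 and Afp 1229 in siC, whereas Ttr was listed at 0 in all siC libraries and Serpina1a at 0 in all 12. Of 13 markers of other cell types, 5 stayed under 1 TPM in every library. Others on that list were expressed in siC, with means of 203 TPM for Cd68, 83.1 for Epcam, 21.3 for Krt19 and 9.58 for Des.

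The promoters of Akr1c14 and Akr1b7, of Akr1b10, which shares a motif with Akr1b7, and of a pair whose sequences are nearly alike are shown first, because the later results refer to them. RefSeq's sequences (GRCm38.p6, 250 bases before to 50 after the start site it gives, written 5′ to 3′ on the gene's strand) were matched for 8 of 10 members, with Gulo and Akr1b3 unmatched. Akr1c14 lies at chr13:4059341-4059640 (+), Akr1b7 at chr6:34412112-34412411 (+), Akr1b10 at chr6:34383997-34384296 (+), Akr1c12 at chr13:4279350-4279649 (-) and Akr1c13 at chr13:4190937-4191236 (+). Capitals mark a match to the ERR element core AAGGTCA, here on the reverse strand as TGACCTT.
Akr1c14: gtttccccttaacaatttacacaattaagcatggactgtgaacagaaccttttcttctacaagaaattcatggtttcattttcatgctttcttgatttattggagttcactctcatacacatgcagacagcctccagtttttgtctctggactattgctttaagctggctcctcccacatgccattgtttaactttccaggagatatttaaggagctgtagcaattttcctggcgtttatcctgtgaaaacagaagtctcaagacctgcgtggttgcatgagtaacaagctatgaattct
Akr1b7: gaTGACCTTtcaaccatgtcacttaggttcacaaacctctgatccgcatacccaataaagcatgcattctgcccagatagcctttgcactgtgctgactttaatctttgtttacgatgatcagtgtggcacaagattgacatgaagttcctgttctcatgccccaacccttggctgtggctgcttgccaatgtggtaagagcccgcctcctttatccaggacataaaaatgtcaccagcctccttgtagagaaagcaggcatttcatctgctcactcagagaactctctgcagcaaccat
Akr1b10: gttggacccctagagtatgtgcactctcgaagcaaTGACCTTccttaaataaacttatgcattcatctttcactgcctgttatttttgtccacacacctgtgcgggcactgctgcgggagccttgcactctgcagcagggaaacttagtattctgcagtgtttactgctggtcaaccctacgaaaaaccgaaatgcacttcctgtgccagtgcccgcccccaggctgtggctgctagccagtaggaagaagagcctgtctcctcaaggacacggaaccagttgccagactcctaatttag
Akr1c12: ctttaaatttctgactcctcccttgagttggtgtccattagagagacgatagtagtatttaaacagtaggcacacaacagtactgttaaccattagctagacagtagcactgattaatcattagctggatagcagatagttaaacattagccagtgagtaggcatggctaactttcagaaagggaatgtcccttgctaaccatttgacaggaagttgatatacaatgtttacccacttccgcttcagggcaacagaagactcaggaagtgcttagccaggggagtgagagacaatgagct
Akr1c13: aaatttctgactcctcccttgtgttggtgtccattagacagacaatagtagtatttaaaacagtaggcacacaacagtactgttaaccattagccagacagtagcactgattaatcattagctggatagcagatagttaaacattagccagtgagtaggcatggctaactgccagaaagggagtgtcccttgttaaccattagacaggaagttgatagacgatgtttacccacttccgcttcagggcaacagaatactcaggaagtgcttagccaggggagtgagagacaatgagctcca
The AAGGTCA core was in the promoters of Akr1b7 and Akr1b10 and in those of 4.72% of 32851 RefSeq promoters of the same length (both strands). The core of the antioxidant response element, TGACNNNGC, occurred among the members in Akr1c19 alone (12.4% of all promoters), and TATAAA in Akr1b8 alone (13.6%). ACTACAA, the core of the element bound by THAP11 and ZNF143, was in none of the 8 windows and in 3.24% of all promoters. The Akr1c14 window held none of the 4 motifs, which says only that these letters are not in it. It lies inside the annotated gene, which begins at chr13:4049011 and has 3 transcripts, so that annotated start is not covered. The Akr1c19 window, from chr13:4233490 on, likewise lies inside its gene, which begins at 4228700. The Akr1c12 and Akr1c13 windows were 93.4% identical over 304 aligned positions.

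The members' levels in siC spanned from high to barely detected. Akr1a1 averaged 510 ± 103 TPM, Akr1c13 368 ± 63.0 and Akr1b8, an aldehyde reductase of the Akr1b group, 323 ± 64.9 (SD, n = 3 each). Akr1c19 averaged 85.0 ± 18.1 TPM and Akr1b3, the aldose reductase that turns glucose into sorbitol, 74.8 ± 21.6. Akr1c12 averaged 39.9 ± 4.61 TPM and Akr1b10 34.04 ± 2.999. The lowest were Gulo at 4.34 ± 1.96 TPM, Akr1b7 at 3.97 ± 1.32 and Akr1c14 at 0.795 ± 0.346. Between neighbours in this order the library ranges did not overlap at 4 places: Akr1b8 above Akr1c19, Akr1b3 above Akr1c12, Akr1b10 above Gulo, and Akr1b7 above Akr1c14. In the combined knockdown Gulo averaged 60.7 ± 26.8 TPM, and its library range of 35.5 to 88.9 TPM held the whole range of Akr1c19, 36.0 to 74.9 (58.8 ± 20.3).

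The vitamin C route comes first. Gulo (ENSMUSG00000034450, chr14:65986786-66009207 of mm10, minus strand) had the widest spread of levels of the 10 members, a factor of 40.1 between its lowest and highest library. In siC libraries 1, 2 and 3 it had 2.44, 4.86 and 2.04 CPM (57, 140 and 51 counts). In siERRa it had 19.99, 28.1 and 7.03 CPM (518, 657 and 245 counts), and in siHCFC1 17.7, 32.4 and 8.95 CPM (368, 768 and 261 counts). In the combined knockdown it had 43.3, 81.9 and 24.1 CPM (1115, 1681 and 726 counts). Every library of each knockdown thus lay above every siC library, while the combined libraries overlapped those of either single knockdown. Between libraries of the same number, the combined level was 2.17, 2.92 and 3.43 times that of siERRa (libraries 1, 2 and 3). Over siHCFC1 it was 2.45, 2.53 and 2.70 times. The labels do not say that a number marks shared material.

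As a description, the mean level of Gulo was 5.85 times that of siC in siERRa (log2 difference 2.55, SE 0.59), 6.27 times in siHCFC1 (2.65, SE 0.59) and 15.9 times in the combined knockdown (3.99, SE 0.62), all from the edgeR fit. In these bulk samples, more cells with Gulo RNA and more Gulo RNA per cell cannot be told apart. The combined level was above that of siERRa by a log2 difference of 1.44 (SE 0.55, 95% interval 0.27 to 2.61, adjusted p = 0.187) and above that of siHCFC1 by 1.34 (SE 0.55, 95% interval 0.17 to 2.51, adjusted p = 0.636), so neither step passed the threshold. With no filter on low counts both passed it, at nearly the same log2 differences of 1.43 and 1.34 (adjusted p = 1.44e-05 and 0.000439). Each step passed in 2 of 23 alternative settings, the unfiltered fit and the one with a block for library number. Of 12 fits that left out 1 library, 0 called either step, and DESeq2 gave adjusted p of 0.0860 and 0.377. The authors' deposited table gives the first of these steps a log2 fold change of 1.46 (adjusted p = 0.0317) and the second 1.33 (adjusted p = 0.358). The single log2 differences of Gulo add to 5.20 and the combined one was 3.99, a departure of -1.21 (SE 0.78, 95% interval -2.88 to 0.46, adjusted p = 1.00). Both steps and this departure share libraries with the differences that led to the choice of Gulo. They are not independent of it, and nothing is read from which side of the threshold they fell on.

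Gulo followed the library number within every group. Library 2 was the highest and library 3 the lowest in 4 of 4 groups. The share of counts from mitochondrially encoded genes, 2.37% to 14.5% over the 12 libraries, had the same order in 4 of 4 groups. The hepatocyte marker list, 11 genes with 1 at 0 throughout, summed to 4852 to 7879 TPM per library in siC, 8223 to 10383 in siERRa, 5932 to 7988 in siHCFC1 and, with both pools, 7341 to 9104. Alb and Afp make up most of these sums. Hnf4a, a liver transcription factor on the list, averaged 59.2 TPM in siC, 35.6 in siERRa, 32.97 in siHCFC1 and, with both pools, 24.9, and Trf, transferrin, 97.2, 154, 70.0 and 63.6. The part of these measures in the Gulo levels was not tested. None of the 31-base words of Gulo recurs in another gene, so its counts have no near-identical source among annotated genes.

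**Figure D1:**
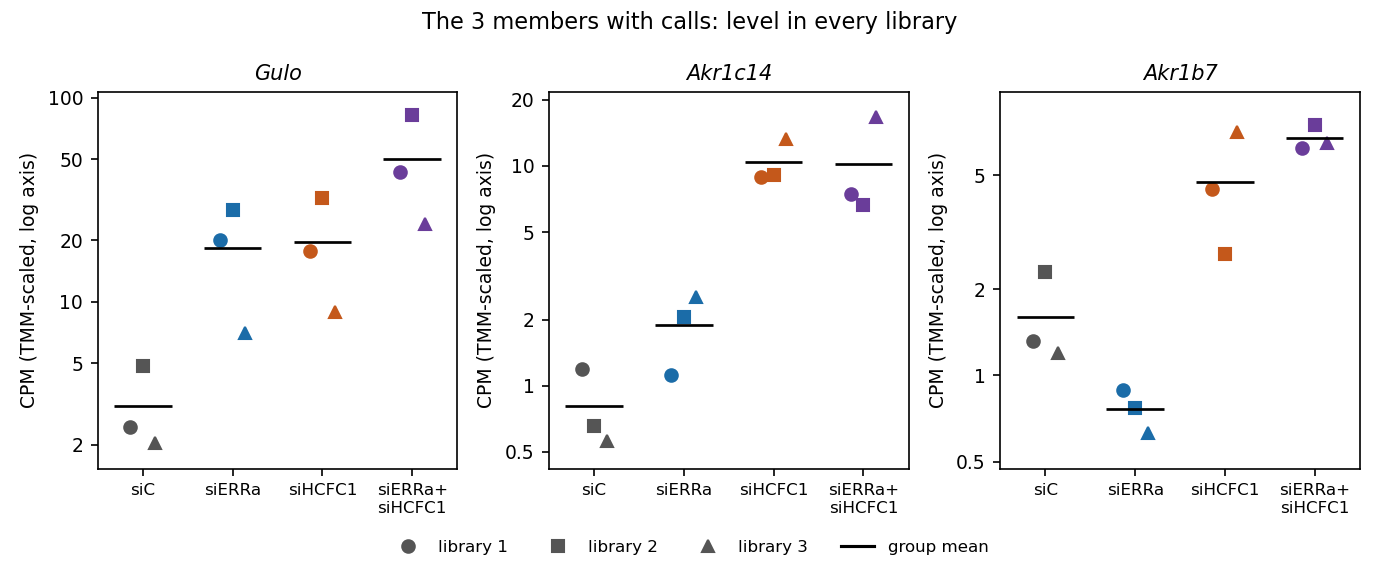
Level of Gulo, Akr1c14 and Akr1b7 in every library (CPM, log axis) by siRNA group; marker shapes give the library number and lines the group means (n = 3). Gulo runs from 2.04 CPM in a siC library to 81.9 in a combined one with library 2 highest in every group, Akr1c14 is high in both groups that received siHCFC1, and Akr1b7 is lowest in siERRa.

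Akr1a1, which reduces glucuronate to gulonate earlier in the route, did not share the pattern of Gulo. It ranged from 357 to 505 CPM in siC, 298 to 590 in siERRa, 365 to 594 in siHCFC1 and, with both pools, 393 to 527, and the ranges overlapped in all comparisons. Its log2 differences from siC were -0.0009 (95% interval -0.56 to 0.56), 0.11 (-0.45 to 0.67) and 0.09 (-0.47 to 0.65), with adjusted p of 1.00, 0.878 and 0.908. Unlike Gulo it was lowest in library 2 and highest in library 3 in 4 of 4 groups. Of 15 further genes of glucuronate and ascorbate handling, 11 were tested. In each of the 6 comparisons 0 of these 11 were called, where 0% to 6.89% of all genes were. With shares this low, 0 calls say little about these genes. Their median log2 difference was -0.19 in siERRa, 0.18 in siHCFC1 and, with both pools, 0.17 against siC, beside medians over all genes of 0.0066, 0.0024 and -0.0060.

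Among the steroid-handling members, Akr1c14 (ENSMUSG00000033715, chr13:4049011-4090688 of mm10, plus strand), a 3-alpha-hydroxysteroid dehydrogenase, was close to silent in siC. Its levels there were 1.196, 0.659 and 0.560 CPM in libraries 1, 2 and 3. In siERRa they were 1.12, 2.05 and 2.53 CPM, and in siHCFC1 8.92, 9.06 and 13.3 CPM. In the combined knockdown they were 7.42, 6.62 and 16.7 CPM. The 6 libraries with siHCFC1 all lay above the 6 without it, and siERRa overlapped siC. Summed over 3 libraries, Akr1c14 had 61 counts in siC and 165 in siERRa, against 789 in siHCFC1 and 829 with both pools.

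As a description, the mean level of Akr1c14 was 13.0 times that of siC in siHCFC1 (log2 difference 3.70, SE 0.48), 12.7 times in the combined knockdown (3.67, SE 0.48) and 2.37 times in siERRa (1.24, SE 0.46). On the log2(TPM + 1) scale, which understates changes of such low genes, the first of these was 2.51. Its combined level was 5.38 times that of siERRa (log2 difference 2.43, SE 0.45), a value that rests on the same combined libraries and is likewise a description. It was 1.88 without library 3 of the combined knockdown and 2.15 without all libraries numbered 3. Adding siERRa to siHCFC1 gave a log2 difference of -0.02 (SE 0.42, 95% interval -0.92 to 0.88, adjusted p = 1.00), whose sign turned without libraries numbered 2 (0.12). The combined difference departed from the sum of the single ones by -1.27 (SE 0.62, 95% interval -2.60 to 0.07, adjusted p = 1.00). That departure and the step from siHCFC1 likewise share libraries with the differences that led to the choice of Akr1c14 and are not independent of it. Of the 31-base words of Akr1c14, 7.23% recur in other genes, mostly the overlapping Gm18857.

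Its cluster neighbours gave other values. The Akr1c members lie within 230 kb of chromosome 13, from 4049011 to 4279433, in the order Akr1c14, Akr1c13, Akr1c19 and Akr1c12. Akr1c18, which encodes a 20-alpha-hydroxysteroid dehydrogenase that breaks down progesterone and is no member, stands between the first 2, with log2 differences from siC of 0.38 (SE 0.25), 0.58 (SE 0.25) and 0.64 (SE 0.25), none called. Akr1c12, at the far end, had 13.8 to 18.4 CPM in siC, 13.9 to 16.1 in siERRa, 21.2 to 30.5 in siHCFC1 and, with both pools, 15.4 to 24.6. All siHCFC1 libraries of Akr1c12 lay above all siC libraries, and the log2 difference of 0.63 (SE 0.23, 95% interval 0.15 to 1.12) missed the threshold (adjusted p = 0.118).

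Akr1c13 was more abundant in siC than Akr1c12, at 368 against 39.9 TPM, and the promoter windows of both are nearly alike, as shown above. It ranged from 141 to 187 CPM in siC, 123.3 to 260 in siERRa, 143 to 251 in siHCFC1 and, with both pools, 159 to 189. Its log2 differences from siC were 0.26, 0.23 and 0.11 (SE 0.26 each), with adjusted p of 0.867, 0.699 and 0.882. Of the 31-base words of Akr1c12, 39.2% recur in Akr1c13, and 33.7% the other way, so the division of reads between them is uncertain. Akr1c19 had 128 to 184 CPM in siC, 82.0 to 161 in siERRa, 144 to 196 in siHCFC1 and, with both pools, 86.3 to 133. All combined libraries of Akr1c19 lay below all siHCFC1 libraries, and that log2 difference of -0.53 (SE 0.26, 95% interval -1.08 to 0.01) missed the threshold (adjusted p = 0.702).

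The Akr1b members lie within 121 kb of chromosome 6, from 34302434 to 34423142. Akr1b7 (ENSMUSG00000052131, chr6:34412334-34423142, plus strand) is known from the mouse vas deferens and adrenal gland, where it reduces isocaproaldehyde, a by-product of steroid synthesis. It had 1.32, 2.29 and 1.201 CPM in siC libraries 1, 2 and 3. In siERRa it had 0.888, 0.769 and 0.631 CPM, and in siHCFC1 4.46, 2.65 and 7.06 CPM. In the combined knockdown it had 6.22, 7.50 and 6.45 CPM. The siERRa libraries lay below all others, and every library with siHCFC1 lay above every library without it, with siHCFC1 library 2 only just above siC library 2.

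Akr1b7 rose 2.94-fold in siHCFC1 against siC (log2 difference 1.55, SE 0.44, adjusted p = 0.0470) and 4.17-fold in the combined knockdown (2.06, SE 0.44, adjusted p = 0.0121). The first of these calls stands near the threshold: it ended in 9 of 12 fits that left out 1 library, with log2 differences from 1.16 to 1.92 over the 12, and held in 8 of 23 alternative settings in all. The second ended without siC library 1 (1.95, adjusted p = 0.0652) without siC library 3 (1.90, adjusted p = 0.0664) and without all libraries numbered 3 (1.93, adjusted p = 0.113). From siERRa to the combined knockdown Akr1b7 rose 8.79-fold (log2 difference 3.14, SE 0.47, adjusted p = 0.00233), a call that held in 22 of 23 settings and ended without all libraries numbered 3 (3.04, adjusted p = 0.0577). In siERRa against siC its log2 difference was -1.08 (SE 0.45, 95% interval -2.03 to -0.12), short of the threshold (adjusted p = 0.399).

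The single log2 differences of Akr1b7 thus had opposite signs. They add to 0.48, and the combined difference of 2.06 departed from that by 1.58 (SE 0.61, 95% interval 0.27 to 2.90, adjusted p = 1.00). Without libraries numbered 2 the departure was 0.87. Adding siERRa to siHCFC1 gave 0.51 (SE 0.42, 95% interval -0.40 to 1.41, adjusted p = 0.977), although siERRa alone lay below siC.

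An overlapping gene on the other strand limits what is known of Akr1b7. Of its exon bases 27.2% overlap Gm13857 on the other strand, and the library kit does not mark strand, so reads of the 2 genes cannot be told apart there. The deposited tables list Gm13857 at 37 counts in siHCFC1 library 2, 13 in siHCFC1 library 3, 11 in combined library 1 and 0 in the other 9. Of the adrenal markers, Cyp11a1 averaged 3.43 ± 1.00 TPM in siC, 2.92 ± 0.943 in siERRa, 5.95 ± 1.21 in siHCFC1 and, with both pools, 4.60 ± 2.18, and Star 1.78 ± 0.715, 2.83 ± 0.649, 3.05 ± 0.989 and 3.45 ± 0.287 (SD, n = 3 each). The whole list of 13 markers of other cell types summed to 271 to 379 TPM per library in siC, 248 to 353 in siERRa, 152 to 199 in siHCFC1 and, with both pools, 158 to 181, with Cdh5 at 0 in every library. Cd68 and Epcam make up most of these sums. In the same order of groups Cd68 averaged 203, 130, 111 and 88.5 TPM, and Epcam 83.1, 125, 40.4 and 48.3. Csf1r, listed like Cd68 as a macrophage marker, went the other way with siHCFC1, at 0.556, 0.117, 3.77 and 2.62 TPM. The part of these markers in the level of Akr1b7 or Akr1c14 was not tested.

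**Figure D2:**
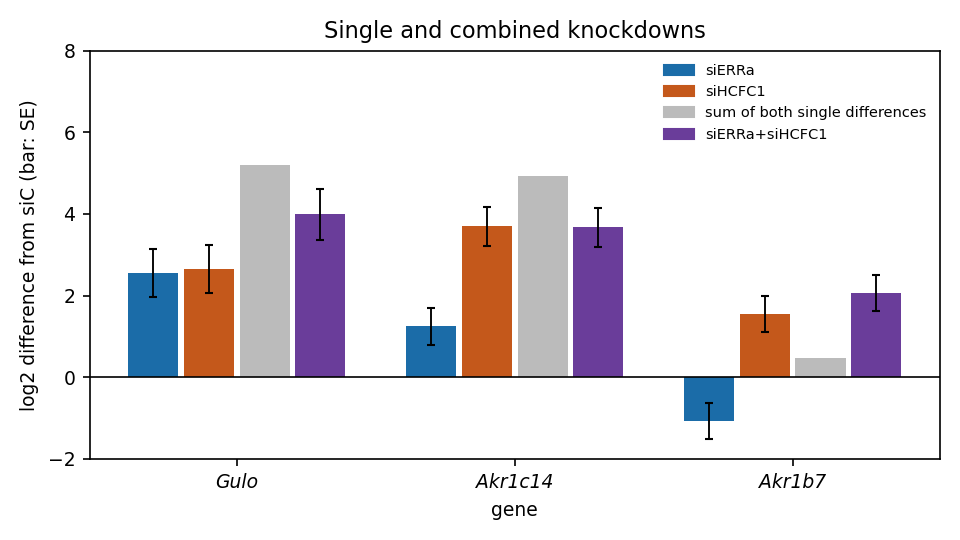
Log2 difference from siC of Gulo, Akr1c14 and Akr1b7 in each single knockdown, the sum of both single differences and the combined knockdown (error bars are the SE from edgeR). The combined bar stands below the sum for Gulo (3.99 against 5.20) and Akr1c14 (3.67 against 4.94) and above it for Akr1b7 (2.06 against 0.48), and none of these departures passed the threshold. Those of Gulo and Akr1c14 are built from the differences that led to the choice of these genes.

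Akr1b10, whose human namesake reduces retinal, shares the AAGGTCA core with Akr1b7. Their differences from siC in siERRa had opposite signs, and neither was called. The part of the core in these levels was not tested. Akr1b10 had 34.4 to 43.2 CPM in siC, 41.3 to 55.4 in siERRa, 44.4 to 59.5 in siHCFC1 and, with both pools, 39.4 to 53.9. All siHCFC1 libraries lay above all siC libraries. Its log2 differences from siC were 0.30 (SE 0.19, adjusted p = 0.689), 0.43 (SE 0.19, adjusted p = 0.216) and 0.29 (SE 0.19, adjusted p = 0.440). Like Gulo it was highest in library 2 in 4 of 4 groups.

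Akr1b3, the first enzyme of the polyol route, varied more between library numbers than between groups. It had 183, 152 and 251 CPM in siC, 138, 80.8 and 192 in siERRa, 238, 168 and 377 in siHCFC1 and 208, 136 and 305 in the combined knockdown, in libraries 1, 2 and 3. Library 2 was the lowest and library 3 the highest in 4 of 4 groups, and all group ranges overlapped. Its log2 differences from siC were -0.51, 0.42 and 0.15 (SE 0.36 each, adjusted p = 0.738, 0.583 and 0.884). With TPM in place of scaled counts the third had the other sign (-0.03). Of the words of Akr1b3, 15.2% recur in other genes, mostly Gm38056.

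Akr1b8 had 132 to 181 CPM in siC, 111 to 233 in siERRa, 137 to 255 in siHCFC1 and, with both pools, 121 to 218, with library 2 the lowest in 4 of 4 groups. Over Akr1a1, Akr1b8 and Akr1c13 and all 6 comparisons, the 18 log2 differences lay between -0.38 and 0.37 with 95% intervals within -1.18 to 1.02. The lowest adjusted p among them was 0.554.

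**Figure D3:**
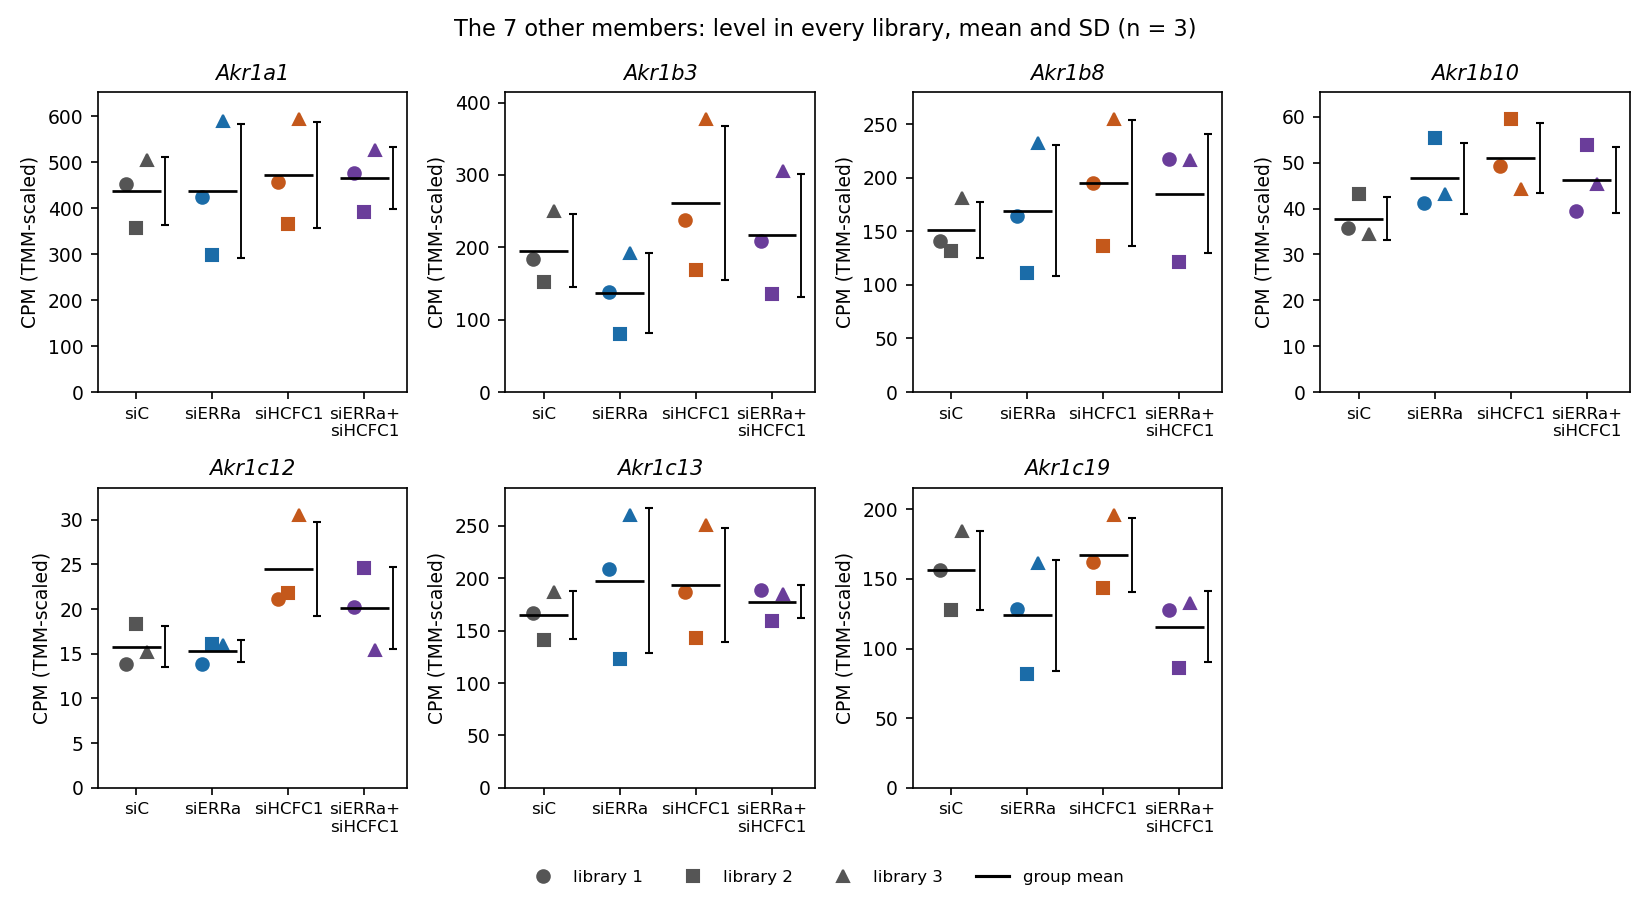
Level (CPM, linear axes from 0) of the 7 members without calls in every library by siRNA group; marker shapes give the library number, lines the mean and bars the SD (n = 3). Library 2 is the lowest in all 4 groups for Akr1a1, Akr1b3, Akr1b8, Akr1c13 and Akr1c19 and the highest for Akr1b10.

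Counted over the 10 members, 0 were called in siERRa against siC, where 0.438% of all genes were. In siHCFC1 against siC 3 were called, all higher (Akr1b7, Akr1c14 and Gulo), beside 2.46% of all genes called higher, and the same 3 in the combined knockdown against siC beside 2.83%. Since those contrasts led to the choice, nothing is read from these counts. From siERRa to the combined knockdown 2 were called, both higher (Akr1b7 and Akr1c14), beside 1.41% of all genes, and the call of Akr1c14 there is not independent of its choice. From siHCFC1 to the combined knockdown 0 were called, beside 0.00626% of all genes, and 0 members departed from the sum of the single changes, beside 0% of all genes. Beside the 3 counts of 0, an unadjusted edgeR p under 0.05 was reached by 3, 1 and 1 members, and by 1640, 1159 and 439 of all genes, in siERRa against siC, in the combined knockdown against siHCFC1 and in the departure. These members were Akr1b7, Akr1c14 and Gulo in siERRa, Gulo against siHCFC1, and Akr1b7 in the departure. DESeq2 called 1, 0 and 0 members there, the 1 being Gulo. Since Akr1c14 and Gulo were chosen on their differences from siC, nothing is read from these counts either.

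The range counts and medians that follow include Akr1c14 and Gulo, which were chosen on their differences from siC. Nothing about the members as a set is read from these values. The library ranges of 5 members (Akr1b7, Akr1b10, Akr1c12, Akr1c14 and Gulo) lay above siC in siHCFC1 without overlap, beside 11.5% of all genes. There were 3 such members in the combined knockdown (13.3% of all genes) and 1, Gulo, in siERRa (7.17%), where 1 more, Akr1b7, lay below (9.16%). In the combined knockdown 2 lay above siERRa (9.78%), 1 below siHCFC1 (5.35%) and 0 above it (5.99%). The median log2 difference of the members from siC was 0.08 in siERRa, 0.43 in siHCFC1 and, with both pools, 0.29. In siHCFC1 10 of 10 differences were above 0, although that of Akr1c19 (0.10) was at -0.05 with TPM in place of scaled counts.

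**Figure D4:**
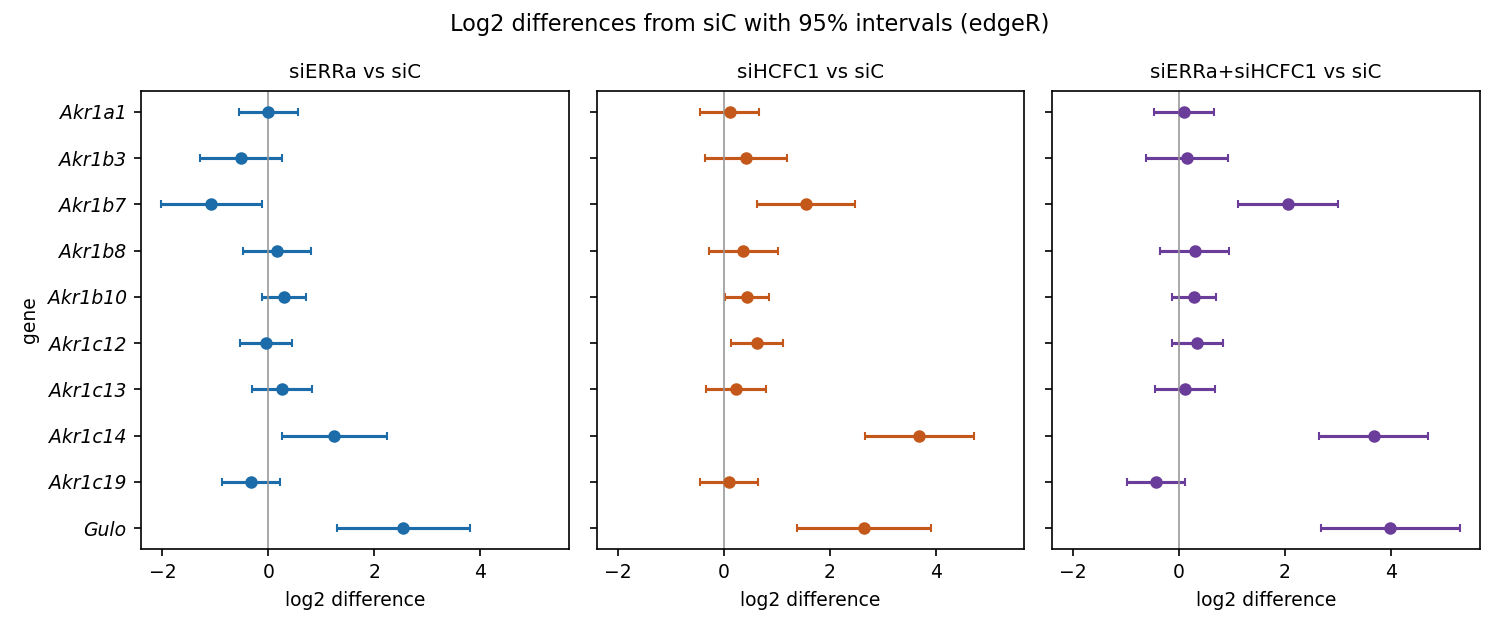
Log2 difference from siC of each of the 10 members in siERRa, siHCFC1 and the combined knockdown (points) with 95% intervals from the edgeR fit (bars). Gulo stands at 2.55, 2.65 and 3.99, Akr1b7 changes sign between siERRa (-1.08) and the others, and the other 7 points besides Akr1c14 lie within 1 of 0 in each panel. The differences of Gulo and Akr1c14 led to the choice of the set, so their intervals are a description and no test against 0.

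Other enzymes of aldehyde, polyol, steroid and redox metabolism gave few calls. In siERRa against siC 0 genes of the 6 lists were called, beside 0.438% of all genes. Of 21 tested aldehyde- and carbonyl-handling genes, 1 rose and 1 fell in siHCFC1 against siC, where 6.68% of all genes were called in either direction. Aox1, the aldehyde oxidase, rose from 41.0 ± 14.4 to 129 ± 59.8 CPM (SD, n = 3 each, log2 difference 1.65, SE 0.42, adjusted p = 0.0312). Dhdh, a dihydrodiol dehydrogenase, fell from 13.4 ± 1.02 to 3.64 ± 0.346 CPM (log2 difference -1.88, SE 0.25, adjusted p = 0.000725). The same 2 genes were called in the combined knockdown against siC, with 1.78 and -1.63, where 6.89% of all genes were called.

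Of 16 tested genes linked to NRF2, the transcription factor of the oxidative stress response, 1 rose in siHCFC1 against siC, beside 2.46% of all genes. It was Nqo1, a quinone reductase, at 28.6 ± 4.25 CPM in siC and 70.2 ± 17.1 in siHCFC1 (SD, n = 3 each). Nqo1 was also called in the combined knockdown against siC (log2 difference 1.26, adjusted p = 0.0140) and against siERRa (1.95, adjusted p = 0.00200). Against siERRa Gclc (0.84, adjusted p = 0.0260) and Gstm1 (1.14, adjusted p = 0.0387), both of glutathione metabolism, rose as well, which makes 3 of 16 beside 1.41% of all genes. The median log2 difference of this list from siC was -0.32 in siERRa, 0.33 in siHCFC1 and, with both pools, 0.22, beside the medians over all genes given above, and against siERRa it was 0.55, beside -0.0066.

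Against siERRa, where 3.24% of all genes were called, the combined knockdown also had 1 fall in the polyol list (4 tested), Tkfc at -0.84, and 1 in the steroid and prostaglandin list (11 tested), Hsd17b7 at -1.13. In the aldehyde list Aldh1a7 rose (1.13) and Dhdh fell (-1.69). Other AKR genes, 5 tested of 11, had 0 calls in all 6 comparisons, where 0% to 6.89% of all genes were called. No list had a call in the combined knockdown against siHCFC1 or in the departure, beside 0.00626% and 0% of all genes. Of these 13 list calls 4 held in all 12 fits that left out 1 library: those of Dhdh and that of Nqo1 against siERRa. The other 9 ended in 2 to 9 of the 12, that of Aox1 in siHCFC1 without siC library 1 or 3 or siHCFC1 library 1 or 2, with log2 differences from 1.26 to 1.96. Leaving out all libraries numbered 3 ended the call of Dhdh against siERRa (-1.64, adjusted p = 0.0749). It also ended those of Aox1, Tkfc, Aldh1a7, Hsd17b7, Gclc and Gstm1, and that of Nqo1 in the combined knockdown against siC. The calls of Dhdh against siC and of Nqo1 in siHCFC1 and against siERRa held there.

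Genes whose levels followed those of Gulo and Akr1c14 most closely were found by Pearson's r of log2(CPM + 0.5) over the 12 libraries, among 13683 genes with a mean of at least 1 TPM. Those nearest Gulo were Col14a1 (r = 0.983), Lbp (0.983), Eml4 (0.981) and Ext1 (0.974). Col14a1 encodes a collagen and Lbp the lipopolysaccharide-binding protein made by the liver. Those nearest Akr1c14 were Trmt10a (r = 0.970), Vps50 (0.959), Nudt16 (0.955) and Gbp3 (0.954). With the mean of each library number removed, the nearest to Gulo were Col14a1 (0.990), Atp1b1 (0.983), Lbp (0.982) and Eml4 (0.981), and those nearest Akr1c14 were 4 others, Ddx5 (0.991), Vsig2 (0.987), Hypk (0.984) and Ctso (0.981). The 12 points fall into the 4 groups and share library numbers, so these values rank likeness and are given with no test.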

How the data were processed

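The authors sequenced RNA of 12 libraries, and per the submitters' processing notes HISAT2 2.0.5, featureCounts 1.5.0-p3, DESeq2 1.20.0 and the mm10 genome were used. The deposited read counts of 5 comparison tables, whole numbers per gene, were merged; 377781 shared cells differed in 0 cases, and 5451 blanks were set to 0. The authors' deposited table of TPM values was used for levels between genes, and its 4 columns numbered 4 were taken as library 3 of their group, which they matched best. The authors' deposited comparisons gave log2 fold changes and p-values, which are quoted where named. Another 60 columns, holding normalized counts and FPKM, were left out.

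The members and gene lists were chosen with earlier results of these data known. Named are Esrra, Hcfc1, the members, at most 3 called genes per list and comparison with the smallest adjusted p, and 4 genes nearest in pattern to Gulo and Akr1c14; Akr1c18, Gm13857 and the markers named were added for position, antisense overlap and cell type. The 6 lists are other AKR genes, glucuronate and vitamin C genes, polyol genes, aldehyde- and carbonyl-handling enzymes, steroid and prostaglandin enzymes, and NRF2-linked genes.

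Genes passing filterByExpr (15965) were fitted with edgeR 4.0.16 in R 4.3.3 (TMM, estimateDisp, glmQLFit, glmQLFTest, with 4 group means and 8 residual degrees of freedom). Standard errors and 95% intervals come from that fit. The same steps were also run on data simulated from its mean levels and dispersions. Alternatives, 23 in number, used DESeq2 1.42.0, limma 3.58.1 on log2(TPM + 0.5, 0.1 or 1), other scalings and filters, a block for library number, the compared groups alone and left-out libraries. Replicates were checked for duplicated libraries, and the closest pair had a chi-square of 40.3 per degree of freedom. Library totals of 21.4 to 33.2 M limit precision for counting error only.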

Additional observations from a re-analysis of the deposited data

How the results depend on the processing

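Over 30 gene-comparison pairs and 23 alternatives, 632 of 687 values kept their direction and their side of the threshold, 26 lost a call, 13 gained one and 16 changed sign. Members called in siERRa against siC numbered 0 in the report, 1 with no low-count filter, 1 with DESeq2 and 0 to 1 with 1 library left out. In siHCFC1 against siC they numbered 3, 1 with limma on log2(TPM + 0.1) and 1 to 3 with 1 library left out, the lowest without siC library 1 or 3. In the combined knockdown against siERRa they numbered 2, 3 with no low-count filter (Akr1b7, Akr1c14, Gulo), 1 with log2(TPM + 0.1), 0 without all libraries numbered 3 and 1 to 2 with 1 library left out; against siHCFC1 they numbered 0, and 1 with no low-count filter. The cause of these shifts was not tested. Sign changes concerned uncalled differences: Akr1c14 in the combined knockdown against siHCFC1 (0.12 without libraries numbered 2, -0.57 to 0.20 with 1 library left out), Akr1b3 in the combined knockdown against siC (-0.031, -0.032 and -0.030 with TPM pseudocounts of 0.5, 0.1 and 1, -0.18 to 0.40), Akr1c12 in siERRa against siC (0.038 without libraries numbered 2, -0.13 to 0.081) and Akr1c19 in siHCFC1 against siC (-0.051 with each of the 3 pseudocounts, -0.015 to 0.25). TPM shifted the median gene by -0.16 in siHCFC1 and -0.13 in the combined knockdown, against which these values are to be read.

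With a replicate block for library number, 2 members were called in siERRa against siC (Akr1b3, Gulo), 6 in siHCFC1 against siC, 4 in the combined knockdown against siC, 4 against siERRa (Akr1b3, Akr1b7, Akr1c14, Gulo) and 2 against siHCFC1 (Akr1c19, Gulo), where 1625, 3974, 4067, 3191 and 562 of all genes were. The steps of Gulo from siERRa and siHCFC1 to the combined knockdown had adjusted p of 2.05e-05 and 0.000257 in that fit. The labels do not say that a number marks shared material. Deviations from group means of same-numbered libraries correlated from 0.03 to 0.37 over 18 pairs, 12 of them over 0.1, and those of other pairs from -0.33 to 0.07. The best match of a library in another group had its number in 35 of 36 cases, a hint from the data, not the design.

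Depth limits Akr1c14 and Akr1b7 most, with 14 to 28 and 30 to 66 counts per siC library. The setting without libraries numbered 2 and the look at Gm13857 counts were chosen after seeing the data, and the setting without libraries numbered 3 with earlier results of these data known.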

Other observations

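AKR genes below the count filter had reads in single libraries. Akr1cl had 27 counts in siHCFC1 library 2, 20 in combined library 3, 4 in siC library 3 and 0 in the other 9. Akr1c20, a liver AKR, had 26 counts in siERRa library 2, 9 in siC library 2, 7 in combined library 3, 4 in siHCFC1 library 3, 2 in siERRa library 3 and 0 elsewhere. Akr1d1, the steroid 5-beta-reductase of bile acid synthesis, had 13 counts in siHCFC1 library 2 and 1 in siHCFC1 library 1, and Akr1c6 12 in combined library 2. None of these genes had counts in every library of a group.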
